A study of Rattus norvegicus with 6 samples.

Results

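The genes described here encode the rat major histocompatibility complex (MHC), named RT1 in this species, and the proteins that cut, carry and load peptides for it. They were measured in the ileum, the stretch of small intestine before the colon. All rows of the deposited table whose array annotation gave a single symbol were searched for RT1 genes and for 14 named genes of antigen processing. Where a gene had several rows, the row with the highest mean was used. This gave 48 of the 14506 genes tested, of which 34 belong to the class I pathway and 14 to the class II pathway. Nlrc5, the transactivator of class I genes, was not analysed here.

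The tissue came from rats of the Zucker fa/fa genotype, whose leptin receptor does not work and which become obese, aged 20 weeks. In 3 rats a duodenum-jejunum bypass (DJB) led food around the duodenum and upper jejunum, and 3 rats had a sham operation that left the normal course of food in place. The ileum was taken 14 days after surgery, and each rat gave the RNA for 1 Affymetrix whole-transcript array. All 6 rats share the fa/fa genotype and an abdominal operation, and no unoperated or lean rats were analysed here. Values are log2 levels after RMA normalisation. Differences are DJB minus sham with the standard error (SE) of a limma fit over all genes, and a gene was called at an adjusted p under 0.05.

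MHC class I molecules show peptides made inside a cell to CD8 T cells. Proteasomes cut the proteins, the transporter TAP brings the peptides into the endoplasmic reticulum, and there they are trimmed and loaded onto a heavy chain paired with beta-2 microglobulin. Class II molecules show peptides from lysosomes to CD4 T cells, with the invariant chain and the DM proteins as helpers. B cells, dendritic cells and macrophages carry class II, and so does the epithelium of the small intestine. Interferon gamma induces both pathways.

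Class I genes had higher levels after DJB more often than class II genes, but no single gene passed the test. The 48 genes hold none of the classical RT1-A group, whose row carries 3 symbols and was left out. That row differed by 0.08 ± 0.11, and its groups overlapped. The limma adjusted threshold called 0 of the 48 genes, against 112 of all 14506 genes tested (0.772%), with 57 of those higher (0.393%) and 55 lower (0.379%). The lowest adjusted p among the 48 genes was 0.0535, that of RT1-O1. At an unadjusted p under 0.05, 14 of the 34 class I genes were higher after DJB and 1 was lower. The shares among all genes tested were 9.82% and 4.45%. Of the 14 class II genes, 2 were higher and 0 lower by the same measure. The median difference was 0.26 over the class I genes and 0.0097 over the class II genes, beside 0.050 over all genes tested. The class II median was -0.020 with the arrays centred on their medians, 0.093 without sham 2 and 0.079 without DJB 2. The difference was above 0 in 28 of 34 class I genes (82.4%) and in 8 of 14 class II genes (57.1%), beside 61.7% of all genes tested. The difference between the classes was not tested.

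The 3 DJB values lay wholly above the 3 sham values in 13 class I genes and wholly below them in 2. Among class II genes this was seen in 1 gene each way. Over all genes tested the groups lay apart with DJB higher in 14.5% and with DJB lower in 6.56%. Class I genes are not independent measurements, since RT1 heavy chains are close copies of one another and probes of one can bind transcripts of another. The count of calls depends on the variance model. With an intensity trend and robust eBayes, limma called 6 of the 48 genes, all higher after DJB (RT1-O1, Tap2, RT1-CE11, Tapbp, RT1-CE15 and RT1-Da), and 313 genes in all. With dim rows left out it called Tap2, RT1-CE11 and Tapbp, among 225 genes in all. Leaving out sham 1 called RT1-CE11 (adjusted p = 0.0233) among 61 genes, and leaving out DJB 2 called RT1-N3 (adjusted p = 0.0436) among 43.

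**Figure D1:**
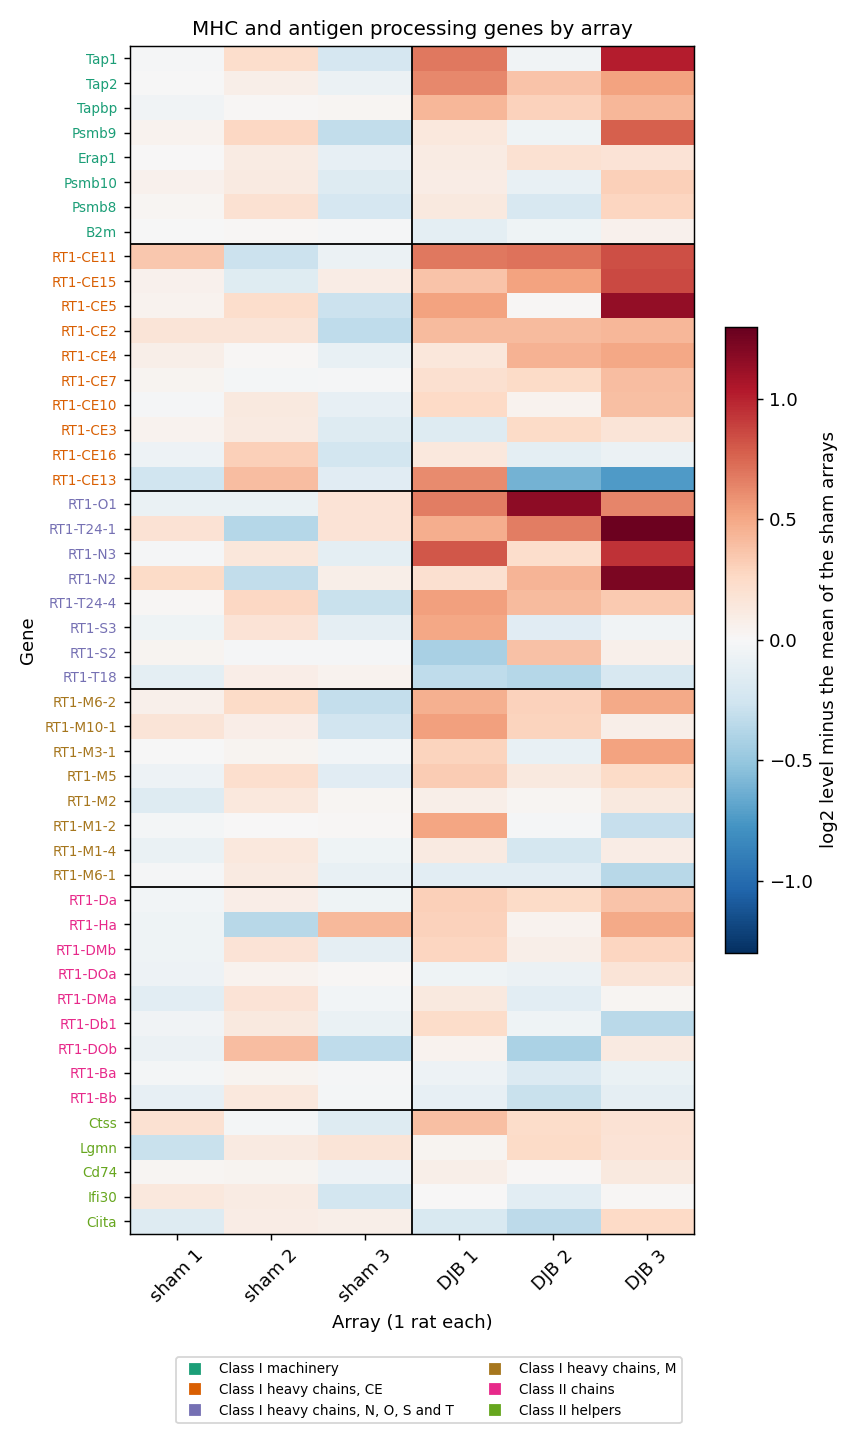
Level of each of the 48 genes (vertical axis, grouped by role) on each of the 6 arrays (horizontal axis), as the log2 level minus the mean of the 3 sham arrays (red higher, blue lower). Class I rows are mostly red on the DJB arrays, while most class II rows are pale, and RT1-CE13 and RT1-T18 are blue on some or all DJB arrays.

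The steps that bring peptides to class I molecules differed in size. Tap2, a subunit of the peptide transporter, had levels of 7.79, 7.87 and 7.72 in sham 1 to 3 and 8.42, 8.17 and 8.32 in DJB 1 to 3. All DJB values lay above all sham values, and the difference was 0.51 ± 0.10 (1.42-fold, adjusted p = 0.0712). Tapbp encodes tapasin, which holds the heavy chain at the transporter until a peptide is bound. Its levels were 9.98, 10.05 and 10.05 in sham and 10.46, 10.33 and 10.46 after DJB. Again the groups did not overlap, and each varied little, with a difference of 0.39 ± 0.09 (1.31-fold, adjusted p = 0.119). Tap1, the other transporter subunit, had levels of 8.38, 8.63 and 8.19 in sham and 9.09, 8.36 and 9.42 after DJB. Here DJB 2 lay among the sham arrays while DJB 1 and DJB 3 lay above them, and the difference was 0.56 ± 0.24 (adjusted p = 0.341).

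Erap1, the aminopeptidase that trims peptides in the endoplasmic reticulum, showed a small difference of 0.16 ± 0.10 (adjusted p = 0.483), although its groups did not overlap. The immunoproteasome subunits, which replace the constitutive ones under interferon, overlapped between groups in all 3 genes. Psmb9 differed by 0.29 ± 0.22, Psmb10 by 0.10 ± 0.13 and Psmb8 by 0.06 ± 0.15. Beta-2 microglobulin, B2m, is the light chain shared by all classical class I molecules. Its levels were 13.16, 13.18 and 13.15 in sham and 13.03, 13.11 and 13.21 after DJB, a difference of -0.04 ± 0.09 (adjusted p = 0.866). These values lie close to the highest of any row (13.85 to 14.10 by array), where a difference can be understated.

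Promoter sequences of these genes are shown because Tap2, Tapbp and Tap1 have the largest differences of the machinery and B2m one near 0, and all 4 hold a match to an interferon motif. The sequences are from RefSeq (assembly GRCr8), which had an entry of 250 bases before to 50 bases after the start for 42 of the 48 genes. Each is printed 5′ to 3′ on the strand of its gene, with capitals for matches on either strand to the core of the interferon-stimulated response element, searched as TTTC, any 2 bases and again TTTC. The Tap1 stretch is chr20:4668630-4668689 on the minus strand, that of Tap2 chr20:4652303-4652362 on the minus strand, that of Tapbp chr20:4967878-4967928 on the minus strand and that of B2m chr3:129549155-129549214 on the plus strand.
Tap1: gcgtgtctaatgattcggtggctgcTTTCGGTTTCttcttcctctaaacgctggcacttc
Tap2: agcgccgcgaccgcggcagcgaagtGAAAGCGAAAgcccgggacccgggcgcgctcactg
Tapbp: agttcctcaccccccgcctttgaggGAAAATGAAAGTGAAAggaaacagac
B2m: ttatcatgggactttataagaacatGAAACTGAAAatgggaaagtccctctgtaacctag

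In Tapbp 2 overlapping matches form the capitals. Over all 33469 RefSeq promoters of this length, 3.92% held this motif. It was found in 6 of the 7 class I machinery genes with an entry (Tap1, Tap2, Tapbp, B2m, Psmb8 and Psmb10), in 3 of 23 heavy chain genes and in 1 of 12 class II genes, Ctss. The 6 machinery genes with the motif had differences from -0.04 (B2m) to 0.56 (Tap1). A match is a description of the sequence only. Only this exact spelling was counted, so a promoter without a match, such as that of most heavy chain genes, can still hold a variant of the element. The spelling was chosen after several were tried on these promoters, so its shares beside all promoters are not a test.

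Class I heavy chains fall into families by name, and the CE family of 10 genes had a median difference of 0.33. Of its genes 8 had a positive difference (80%), 5 had groups that lay apart with DJB higher (50%), and 0 lay apart with DJB lower. Over all genes tested these shares were 61.7%, 14.5% and 6.56%. RT1-CE11 had levels of 6.75, 6.12 and 6.33 in sham and 7.08, 7.10 and 7.24 after DJB. The DJB arrays lay close together above a wider sham group, and the difference was 0.74 ± 0.15 (1.67-fold, adjusted p = 0.0792). RT1-CE15 had levels of 10.02, 9.81 and 10.06 in sham and 10.34, 10.49 and 10.82 after DJB. Its groups were also apart, by 0.58 ± 0.14 (1.5-fold, adjusted p = 0.119). The groups of RT1-CE2 (0.42 ± 0.14), RT1-CE4 (0.37 ± 0.12) and RT1-CE7 (0.28 ± 0.10) were apart as well. A second row of RT1-CE7 went the same way with a difference of 0.88 ± 0.24, and its groups lay apart too.

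In the rest of the CE family the groups overlapped. RT1-CE5 differed by 0.56 ± 0.25, RT1-CE10 by 0.23 ± 0.12, RT1-CE3 by 0.09 ± 0.13 and RT1-CE16 by -0.02 ± 0.15. RT1-CE13, singled out after its values were seen, had levels of 9.77, 10.42 and 9.88 in sham and 10.64, 9.41 and 9.29 after DJB. It was highest on DJB 1 and lowest on DJB 3, the reverse of RT1-CE15 among the DJB arrays, and its difference of -0.25 ± 0.33 was smaller than its SE. Without DJB 1 it was -0.68, and without DJB 3 it was -0.0016. A row shared by RT1-CE13 and RT1-CE14, assigned to neither, differed by 0.58 ± 0.13.

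Promoter stretches of 3 CE genes are shown to compare RT1-CE11 and RT1-CE15, of higher level on all DJB arrays, with RT1-CE13. Capitals mark GGGATTCCC, a kappaB core of the class I enhancer, and CTGATTGG or its reverse complement, the Y box bound by NF-Y. The stretches are chr20:3363221-3363396 for RT1-CE11, chr20:3322890-3322948 for RT1-CE13 and chr20:3283798-3283855 for RT1-CE15, all on the minus strand of GRCr8.
RT1-CE11: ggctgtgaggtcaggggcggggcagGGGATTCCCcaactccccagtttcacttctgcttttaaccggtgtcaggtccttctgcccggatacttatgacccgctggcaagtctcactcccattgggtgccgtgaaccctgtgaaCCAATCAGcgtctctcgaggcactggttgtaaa
RT1-CE13: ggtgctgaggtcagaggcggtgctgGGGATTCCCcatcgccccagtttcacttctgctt
RT1-CE15: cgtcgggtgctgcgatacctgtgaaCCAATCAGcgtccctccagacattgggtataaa

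RT1-CE11 holds both motifs, RT1-CE13 the kappaB core alone and RT1-CE15 the Y box alone within the window searched. The kappaB core was present in 122 of all promoters (0.365%) and in 5 of 23 heavy chain promoters, those of RT1-CE4, RT1-CE10, RT1-CE11, RT1-CE13 and RT1-CE16. These 5 genes had differences from -0.25 to 0.74, and in 2 of them the groups lay apart. The Y box was present in 3.5% of all promoters and in 8 of 23 heavy chain promoters. Both spellings were chosen after several were tried on these promoters, so their shares beside all promoters are not a test. Variants of either motif were not counted.

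Over the 8 class I genes of the N, O, S and T families, most outside the classical group, the median difference was 0.53. Of these genes 7 had a positive difference (87.5%, beside 61.7% of all genes tested). RT1-O1 had levels of 4.51, 4.51 and 4.77 in sham and 5.26, 5.76 and 5.23 after DJB. Its difference of 0.82 ± 0.15 (1.77-fold) was the largest of the 48 genes, and the largest of many can be overstated. Its values lay under 6.11, the median of all rows, where folds can be understated. The row may also read transcripts of other RT1 genes. RT1-T24-1 had levels of 7.26, 6.69 and 7.25 in sham and 7.54, 7.73 and 8.34 after DJB, a difference of 0.80 ± 0.22 (adjusted p = 0.158). RT1-N3 differed by 0.66 ± 0.18 and RT1-T24-4 by 0.43 ± 0.14, and in both the groups lay apart. The other row of RT1-T24-4 differed by 0.32 ± 0.21 and its groups overlapped.

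RT1-N2 (0.63 ± 0.25), RT1-S3 (0.10 ± 0.17) and RT1-S2 (0.0075 ± 0.18, negative with arrays centred on their medians) overlapped between groups. RT1-N2 and RT1-N3 share a transcript accession in the annotation, so their rows may read the same RNA. RT1-T18 was the exception of this group. Its levels were 9.24, 9.45 and 9.42 in sham and 9.04, 9.00 and 9.17 after DJB. All DJB values lay below all sham values, with a difference of -0.30 ± 0.10 (adjusted p = 0.232), and leaving out any 1 array gave -0.37 to -0.26.

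The M family, distant class I-like genes at 1 end of the RT1 region, was dim. Of its 8 genes 7 had a mean below that median of 6.11, and the exception was RT1-M3-1, which encodes a molecule that presents formylated peptides of bacteria. It differed by 0.24 ± 0.15. The median difference of the family was 0.15, with RT1-M6-2 highest (0.42 ± 0.14, groups apart) and RT1-M6-1 lowest (-0.21 ± 0.11, groups apart the other way). RT1-M10-1 (0.30), RT1-M5 (0.23), RT1-M2 (0.08), RT1-M1-2 (0.07) and RT1-M1-4 (-0.0050) overlapped between groups.

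**Figure D2:**
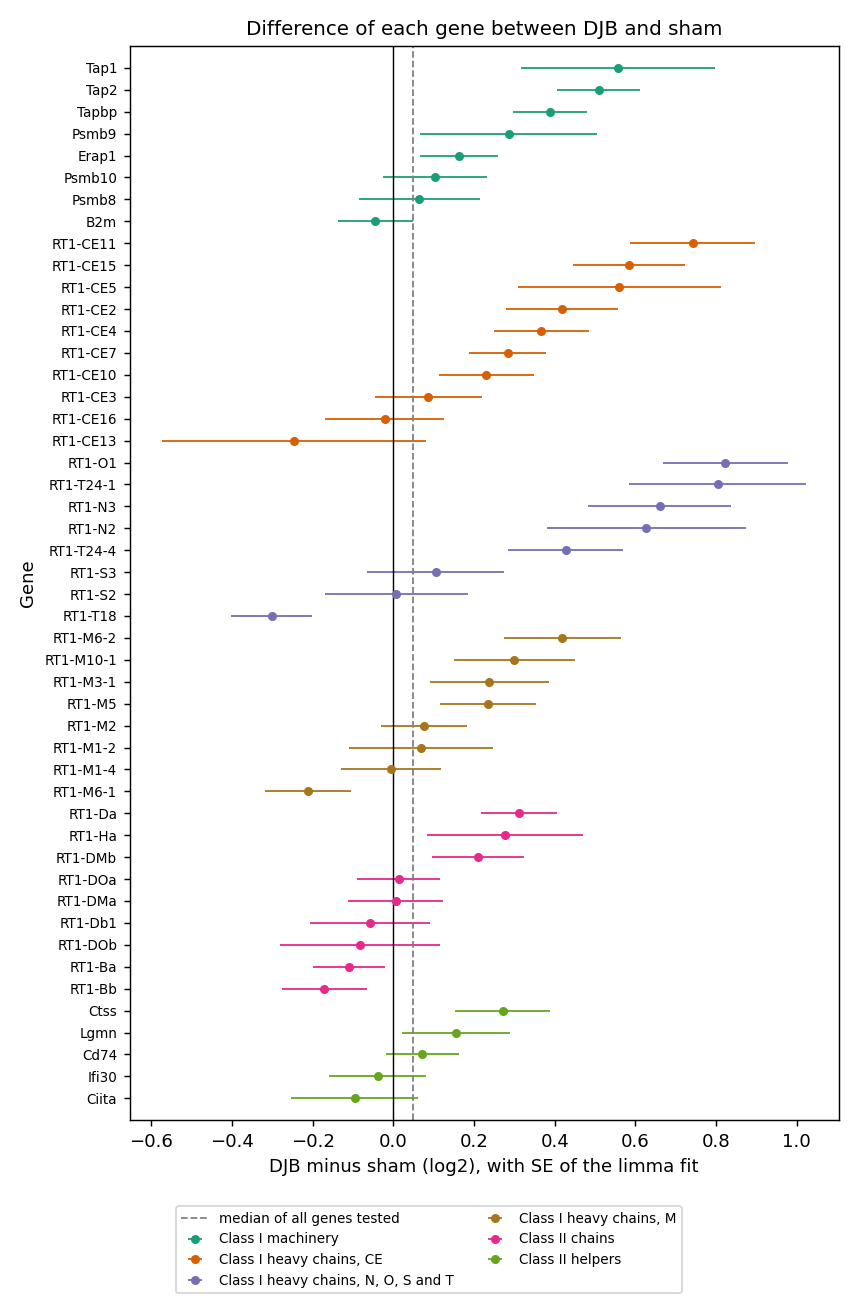
Difference between DJB and sham of each of the 48 genes on the log2 scale (horizontal axis), as points with the SE of the limma fit, coloured by role. The dashed line is the median of all genes tested, 0.050. The points run from -0.30 for RT1-T18 to 0.82 for RT1-O1, and class II genes lie between -0.17 and 0.31.

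Over all genes tested DJB 1 most often held the highest of the 6 values (38.5%), and its array median was the highest, 6.19. Among the class I genes it did so in 8 of 34 (23.5%). DJB 3 carried the highest of the 6 values in 17 of the 34 class I genes (50%) and in 5 of the 14 class II genes (35.7%), beside 14.4% of all genes tested. Among the class I machinery it did so in 5 of 8. Leaving it out moved the difference of several class I genes whose groups overlap, named here after their values were seen. Without DJB 3 the difference of Tap1 was 0.32, of RT1-N2 0.33, of RT1-CE5 0.27 and of RT1-M3-1 0.096. The immunoproteasome genes had differences of 0.042 (Psmb9), 0.0011 (Psmb10) and -0.041 (Psmb8) without it. Psmb9 had levels of 9.75, 9.98 and 9.39 in sham and 9.85, 9.65 and 10.48 after DJB. Its neighbour Tap1 is read from the opposite strand, with 456 bases between the RefSeq starts. In both genes sham 3 was the lowest sham array, DJB 2 the lowest DJB array and DJB 3 the highest of all. The same held in other class I genes, among them Psmb8, Psmb10 and RT1-CE5, so it was not particular to this pair. Tap2 and Tapbp kept differences of 0.50 and 0.37 without DJB 3, and the class I median was 0.23.

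Genes of interferon gamma signalling had their highest mean on DJB 3, as did the T and NK cell markers and the macrophage and dendritic cell markers given with the class II genes. In the list of 20 measured genes DJB 3 held the highest value in 11, and the mean level over the list was 7.29, 7.33 and 7.30 in sham and 7.41, 7.29 and 7.63 after DJB. None of the 20 passed the adjusted threshold in limma. At an unadjusted p under 0.05, 3 were higher (15%) and 3 lower, beside 9.82% and 4.45% of all genes tested. The median difference was 0.19. Ifng itself had levels of 3.87, 4.04 and 3.99 in sham and 4.32, 4.25 and 4.50 after DJB, a difference of 0.39 ± 0.10 (adjusted p = 0.150) far under the median of all rows. Il18, a cytokine that prompts interferon gamma release, differed by -0.48 ± 0.13, and the interferon regulatory factor gene Irf2 by -0.33 ± 0.10. Cxcl9, a chemokine gene induced by interferon gamma and chosen after its values were seen, lay between 5.54 and 5.77 on 5 arrays and at 6.88 on DJB 3.

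Markers of T and NK cells, the main sources of interferon gamma, had their highest mean on the same array. Of 18 measured markers 17 had a positive difference (94.4%, beside 61.7% of all genes tested), with a median of 0.21. The groups lay apart with DJB higher in 1 marker (5.56%, beside 14.5% of all genes tested). DJB 3 was highest in 14 of the markers. Their mean level was 6.80, 7.00 and 6.78 in sham and 7.08, 6.76 and 7.54 after DJB. The granule protease gene Gzmb had levels of 7.89, 8.45 and 7.54 in sham and 8.67, 8.51 and 10.33 after DJB (difference 1.21 ± 0.43, adjusted p = 0.256). Cd3d, a chain of the T cell receptor complex, differed by 0.49 ± 0.18, and Nkg7, a gene of cytotoxic granules, by 0.53 ± 0.25. Other chains of that complex, added after their values were seen, differed less: Cd247 by 0.19 ± 0.18, Cd3g by 0.16 ± 0.20 and Cd3e by 0.017 ± 0.21. None passed the adjusted threshold, and 5 of the 18 lay under the median of all rows. The summed linear level of these markers ran from 3516 to 4786 in sham and from 3656 to 6182 after DJB. The part of these cells in the class I levels was not tested. In whole tissue, more cells of a type and more RNA per cell cannot be told apart.

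**Figure D3:**
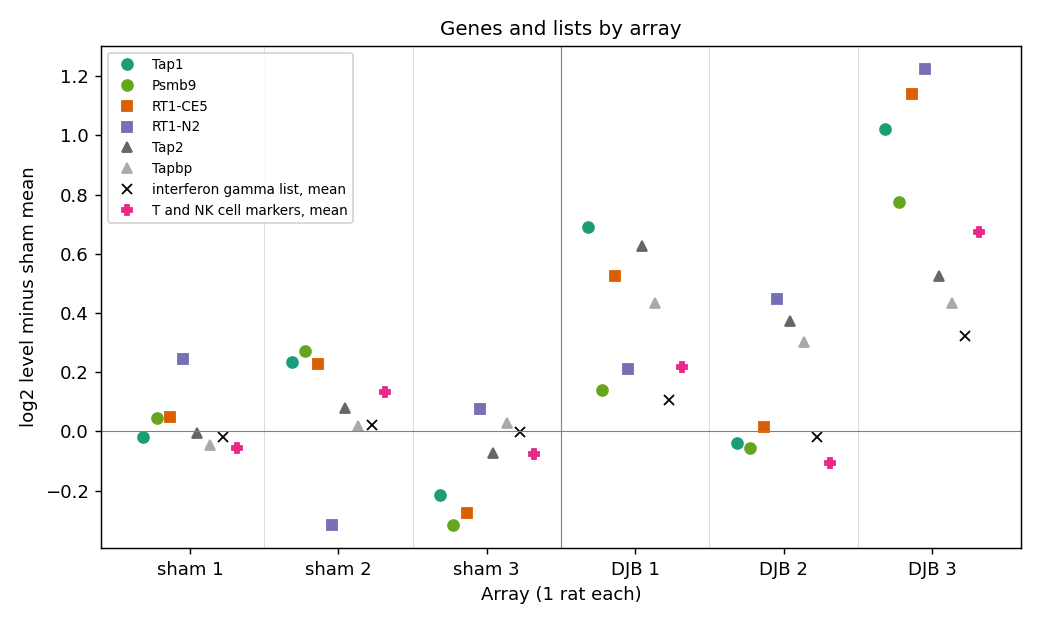
Log2 level minus the mean of the 3 sham arrays (vertical axis) on each array (horizontal axis) for 6 class I pathway genes and for the mean of the interferon gamma list (20 genes) and of the T and NK cell markers (18 genes). Tap1, Psmb9, RT1-CE5 and RT1-N2 peak on DJB 3 together with both list means, while Tap2 and Tapbp lie above their sham values on all 3 DJB arrays. The 6 genes were chosen for this plot with their values known. Of all 34 class I genes, 17 were highest on DJB 3 (50%, beside 14.4% of all genes tested).

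The class II chains had differences of both signs. RT1-Da encodes the alpha chain of the DR-type molecule, and its levels were 12.30, 12.42 and 12.28 in sham and 12.64, 12.58 and 12.71 after DJB. All DJB values lay above all sham values, with a difference of 0.31 ± 0.09 (1.24-fold, adjusted p = 0.190). Its partner, the beta chain gene RT1-Db1, had levels of 8.93, 9.11 and 8.90 in sham and 9.22, 8.92 and 8.63 after DJB, which overlap (-0.06 ± 0.15). RT1-Bb, the beta chain of the DQ-type molecule, had levels of 10.62, 10.86 and 10.71 in sham and 10.63, 10.44 and 10.61 after DJB. Only DJB 1 reached the sham range, and the difference was -0.17 ± 0.11 (adjusted p = 0.499). In its alpha chain gene RT1-Ba all DJB values lay below all sham values, by a small difference of -0.11 ± 0.09. RT1-Ha, a class II alpha chain gene with a mean under the median of all rows, had levels of 5.88, 5.57 and 6.35 in sham and 6.23, 5.98 and 6.42 after DJB (0.28 ± 0.19).

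The chains that exchange peptides on class II molecules overlapped between groups. RT1-DMb had levels of 10.32, 10.55 and 10.25 in sham and 10.66, 10.45 and 10.65 after DJB, with DJB 2 inside the sham range (0.21 ± 0.11). Its partner RT1-DMa differed by 0.0059 ± 0.12. RT1-DOa, part of the DO protein that restrains DM, differed by 0.01 ± 0.10, and RT1-DOb, the other part of DO, by -0.08 ± 0.20. The signs of RT1-DMa and RT1-DOa turned negative when arrays were centred on their medians.

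Class II promoters are shown to compare RT1-Da, of positive difference, with RT1-Db1, RT1-Ba and RT1-Bb, of negative ones. By the exact letters searched, RT1-Da and RT1-Db1 hold the same 2 boxes, and RT1-Ba and RT1-Bb share 1 of them. Capitals mark a core of the X box, searched on either strand as GCAAC, any base, G, any base and TG, and CTGATTGG, the Y box, both sites through which the transactivator CIITA acts by way of RFX and NF-Y. The stretches are chr20:4515308-4515395 (RT1-Da, plus strand), chr20:4560213-4560299 (RT1-Db1, minus strand), chr20:4576986-4577043 (RT1-Ba, plus strand) and chr20:4604150-4604207 (RT1-Bb, minus strand) of GRCr8.
RT1-Da: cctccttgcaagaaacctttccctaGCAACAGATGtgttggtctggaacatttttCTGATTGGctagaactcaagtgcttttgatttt
RT1-Db1: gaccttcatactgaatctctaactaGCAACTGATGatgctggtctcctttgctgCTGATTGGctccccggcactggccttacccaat
RT1-Ba: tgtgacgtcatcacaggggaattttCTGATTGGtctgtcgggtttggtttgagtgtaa
RT1-Bb: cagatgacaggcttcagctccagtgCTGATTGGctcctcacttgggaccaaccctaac

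The Y box was found in 6 of the 8 class II chain promoters with an entry (3.5% of all promoters) and the X box letters in 3, those of RT1-Da, RT1-Db1 and RT1-DOb (0.81% of all promoters). The 6 genes with a Y box had a median difference of -0.02. Only these exact letters were counted, so promoters without a match, among them RT1-Ba and RT1-Bb, can still hold a variant of the X box. The letters were chosen after several spellings were tried on these promoters, so the shares are not a test.

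The helpers of class II overlapped between groups in all 5 genes, with a median difference of 0.07. Cd74, the invariant chain that guides class II molecules to the lysosome, had levels of 13.03, 13.04 and 12.94 in sham and 13.08, 13.02 and 13.13 after DJB. The groups overlapped, near the top of the scale, and the difference of 0.07 ± 0.09 turned to -0.02 after another quantile normalisation. Ciita, the class II transactivator, had levels of 7.20, 7.45 and 7.43 in sham and 7.16, 7.02 and 7.62 after DJB. DJB 2 was lowest and DJB 3 highest, and the difference was -0.10 ± 0.16 (adjusted p = 0.827). Ctss, the lysosomal protease that removes the invariant chain, had levels of 10.67, 10.44 and 10.31 in sham and 10.86, 10.71 and 10.66 after DJB. DJB 1 and DJB 2 lay above all sham arrays and DJB 3 just under sham 1, with a difference of 0.27 ± 0.12 (adjusted p = 0.341). Lgmn, an asparagine-specific lysosomal protease, differed by 0.16 ± 0.13 and Ifi30, a lysosomal thiol reductase, by -0.04 ± 0.12.

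**Figure D4:**
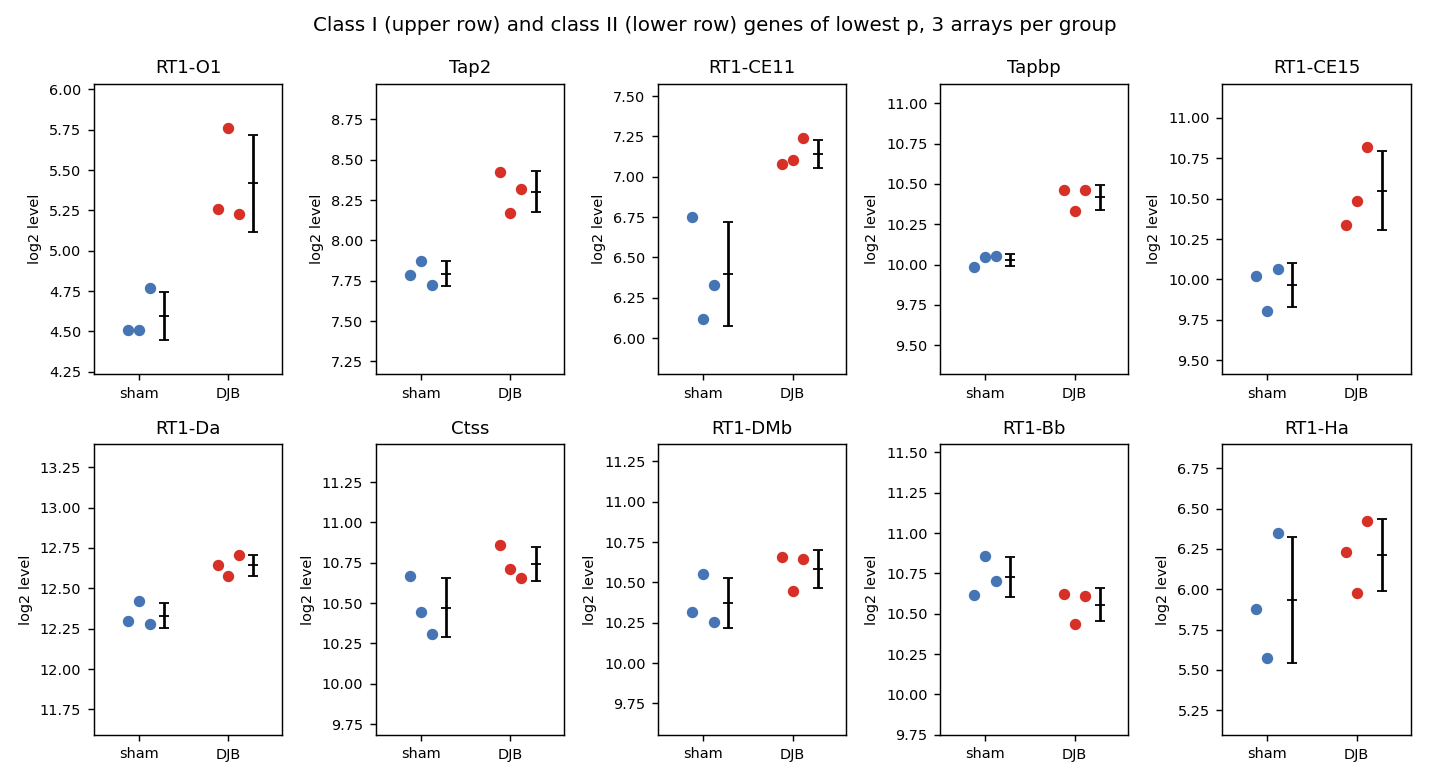
Log2 level (vertical axes, all of the same height) on the 3 sham and 3 DJB arrays of the 5 class I and the 5 class II genes of lowest p, with the mean and SD of each group in black. The groups lie apart in all 5 class I genes shown and, of the 5 class II genes, in RT1-Da.

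Markers of the immune cells that carry class II did not all go one way. Of 8 measured B cell markers 7 had a negative difference, so 12.5% were positive, beside 61.7% of all genes tested. None passed at either threshold, and the median was -0.17. Their mean level was 6.13, 6.42 and 5.63 in sham and 6.32, 5.17 and 5.71 after DJB, and their summed linear level ran from 431 to 760 in sham and from 338 to 699 after DJB. Cr2, a complement receptor of B cells and follicular dendritic cells, had levels of 6.86, 7.35 and 5.60 in sham and 6.92, 4.05 and 5.60 after DJB. Ms4a1, which encodes CD20, differed by -0.73 ± 0.51 and the IgE receptor gene Fcer2 by -0.15 ± 0.14. RT1-DOb, a chain found mainly in B cells and singled out after its values were seen, was highest on sham 2 (7.62) and lowest on DJB 2 (6.81). The B cell mean was highest and lowest on the same arrays. So were RT1-Ba (10.71 and 10.50) and RT1-Bb (10.86 and 10.44), so the pattern was not particular to RT1-DOb. Of the 8 measured markers 6 lay under the median of all rows.

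Of 21 macrophage and dendritic cell markers 13 had a positive difference (61.9%, beside 61.7% of all genes tested). At an unadjusted p under 0.05 in limma, 6 were higher (28.6%, beside 9.82%), and none passed the adjusted threshold. The median was 0.13. DJB 3 was highest in 12 of the 21, and their mean level was 7.29, 7.29 and 7.25 in sham and 7.45, 7.30 and 7.52 after DJB. The summed linear level ran from 8980 to 10232 in sham and from 8618 to 9602 after DJB. The lysozyme gene Lyz2, named after its values were seen, is the brightest of the list and weighs most in that sum, and it differed by -0.25 ± 0.15. Cd14, the lipopolysaccharide co-receptor, differed by 0.54 ± 0.12. Clec9a, a receptor of cross-presenting dendritic cells, which load taken-up antigen onto class I, had levels of 5.88, 6.17 and 6.04 in sham and 6.62, 6.39 and 7.05 after DJB (0.66 ± 0.16, adjusted p = 0.131). The scavenger receptor gene Cd163 differed by 0.45 ± 0.14. Cd14, Clec9a and Cd163 were named for the lowest p of the list, while 8 of the 21 markers had a negative difference. Among those 8 were Ccr7 (-0.12 ± 0.11) and Zbtb46 (-0.04 ± 0.11), added after their values were seen. The part of B cells, macrophages and dendritic cells in the MHC levels was not tested.

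Other genes of the class I pathway were measured for 21 of 22 listed, with 0 called and a median of 0.08. At an unadjusted p under 0.05, 2 were higher (9.52%) and 1 lower, beside 9.82% and 4.45% of all genes tested. Psmb5, a catalytic subunit of the constitutive proteasome that Psmb8 replaces, had levels of 9.21, 9.18 and 9.27 in sham and 9.53, 9.58 and 9.66 after DJB. The groups lay apart by 0.37 ± 0.09 (adjusted p = 0.129). Psmb6, the constitutive counterpart of Psmb9, differed by -0.23 ± 0.10, and the chaperone gene Hspa5 by 0.33 ± 0.12. The 21 other genes of the class II pathway had 0 calls and a median of 0.05. By the same unadjusted measure 2 were higher (9.52%) and 3 lower. Marchf8, a ubiquitin ligase of the family that removes class II from the cell surface, differed by -0.41 ± 0.11 (adjusted p = 0.167), with groups apart. Rfx5, a subunit of the RFX complex on the X box, had levels of 7.30, 7.45 and 7.37 in sham and 7.11, 7.05 and 7.17 after DJB (-0.26 ± 0.09), while Irf8, a factor of dendritic and B cells, differed by 0.40 ± 0.15.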

How the data were processed

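Total RNA of rat ileum was measured on 6 Affymetrix rat whole-transcript arrays, 3 per surgery group. The authors deposited log2 values made with RMA, per the submitters' processing notes, which give no version. RMA corrects background, quantile normalises and summarises probes. The genome build of the array annotation was not given in the sources used here. The values were used as deposited (29214 rows, array medians 6.08 to 6.19). Of the rows, 15310 carried 1 gene symbol, 323 several and 13581 none, from an annotation of the array platform. All 48 genes were found under the same symbol by gene ID in RefSeq (GRCr8).

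Groups were compared over 14506 genes with limma 3.58.1 in R 4.3.3 (lmFit, eBayes, two-sided, Benjamini-Hochberg over all genes tested), with no covariate and no filter, after a test on simulated data. The rats are labelled as biological replicates, no batch is labelled, and precision is limited by how few arrays there are. An exact permutation test of 3 against 3 cannot go under p = 0.1. Alternatives were a replicate block, 2 normalisations, a filter on dim rows, another variance model, other rows and leaving out each array. Values on every array are given for B2m, Cd74, Ciita and the 5 genes of lowest p in each class, and up to 3 genes of lowest p were named from each other list. Further genes were given values on every array once those had been seen. The genes, the lists and the promoter motifs were chosen with earlier results of these data known, and the spelling of the motifs after several were tried on these promoters. The plots are from matplotlib 3.10.9 (Python 3.11.15).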

Additional observations from a re-analysis of the deposited data

Results flagged for a closer look

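The array holds 4 rows that carry several RT1 symbols each, which the comparison of genes left out and which were assigned to no gene. In 3 of them all DJB values lay above all sham values, and in a fit over all rows none of the 4 passed the adjusted threshold. A row shared by the symbols RT1-CE1 and RT1-CE12 differed by 0.47 ± 0.10 (adjusted p = 0.134 in limma over all rows). A row shared by RT1-CE13 and RT1-CE14 differed by 0.58 ± 0.13 (adjusted p = 0.146), whereas the row of RT1-CE13 alone differed by -0.25. A row shared by RT1-CE7, RT1-CE1 and RT1-CE12 differed by 0.51 ± 0.11 (adjusted p = 0.149). The remaining row, which carries the symbols of 3 classical class I genes of the RT1-A group, differed by 0.08 ± 0.11, and its groups overlapped.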

How the results depend on the processing

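The class I median stayed between 0.18 and 0.32 when each array was left out and between 0.23 and 0.29 under the other settings. The class II median lay between -0.0034 and 0.09 without 1 array. Among the 48 genes, 569 of the values recomputed under alternatives kept their direction and their side of the threshold, 11 came to pass it and 34 changed sign. All sign changes were in genes that were called under neither setting. The number of the 48 genes called was 3 with dim rows left out, where 38 of them were tested, and 6 with trend and robust eBayes, and it ran from 0 to 1 without 1 array. Over all genes the count of calls was 225 with dim rows left out and 313 with trend and robust eBayes, and it ran from 33 to 108 without 1 array. Class I genes higher at an unadjusted p under 0.05 numbered 10 to 17 without 1 array. For class II genes that count of 2 was 1 with all rows tested, with another quantile normalisation and with arrays centred on their median, 3 with the replicate block and 3 with trend and robust eBayes, and it ran from 1 to 2 without 1 array. These 2 counts were added after seeing the data. The cause of these changes was not tested.

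With the replicate number as a block, limma called 50 genes and 0 of the 48. Same-numbered arrays did not deviate together (correlations of 0.0053, -0.12 and -0.15 over all genes for numbers 1 to 3). Between arrays of unlike numbers the correlations ran from -0.057 to 0.17. Pairing by number was thus not seen, but with 3 arrays per group this check cannot exclude it.

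After another quantile normalisation the difference was -0.042 for RT1-S2, -0.019 for RT1-DOa, -0.0061 for RT1-DMa and -0.015 for Cd74. With arrays centred on their median it was -0.023 for RT1-S2, -0.017 for RT1-DOa and -0.024 for RT1-DMa. Without 1 array each, the difference ran from -0.0094 to 0.15 for RT1-M2, from -0.064 to 0.058 for RT1-DOa, from -0.064 to 0.094 for RT1-DMa and from -0.16 to 0.029 for Ifi30. It ran from -0.14 to 0.13 for RT1-CE16, from -0.067 to 0.11 for RT1-M1-4, from -0.21 to 0.089 for RT1-Db1, from -0.25 to 0.12 for RT1-DOb and from -0.18 to 0.22 for RT1-S2. It ran from -0.045 to 0.20 for Psmb8, from -0.15 to 0.25 for RT1-M1-2, from -0.095 to 0.23 for RT1-S3 and from -0.27 to 0.029 for Ciita. Quantile normalisation hides a change shared by most genes, and summarised values of dim rows such as RT1-O1 and the M family can understate folds.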

Other observations

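The genes of the absorptive epithelium were bright in both groups. All 14 measured enterocyte markers lay above the median of all rows, with mean levels from 11.93 to 12.16 in sham and from 11.99 to 12.12 after DJB. None passed the adjusted threshold in limma, and 1 was higher at an unadjusted p under 0.05 (7.14%, beside 9.82% of all genes tested). Of the 14 markers 8 had a positive difference (57.1%, beside 61.7% of all genes tested) and 6 a negative one. Their median difference was 0.042, beside 0.050 over all genes tested. Named for the lowest p of the list, the adhesion gene Epcam differed by 0.21 ± 0.09, the lectin gene Lgals4 by 0.19 ± 0.09 and the keratin gene Krt19 by 0.17 ± 0.09. The fatty acid binding protein gene Fabp2, added after its values were seen, differed by -0.13 ± 0.09. Of 6 plasma cell markers 3 had a positive difference (50%, beside 61.7% of all genes tested) and none passed the adjusted threshold. The syndecan gene Sdc1, which epithelium also expresses, differed by 0.38 ± 0.15, the antibody joining chain gene Jchain by -0.26 ± 0.14 and the transcription factor gene Irf4 by 0.21 ± 0.11.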
